A study of Rattus norvegicus with 4 samples.

Results

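A group of 10 genes of the red cell lineage was followed in the embryonic rat telencephalon, the front part of the forebrain: 5 that encode proteins of the red cell membrane (Slc4a1, Epb42, Kel, Rhag and Ank1) and 5 that regulate or equip erythroid cells (Gata1, Klf1, Nfe2, Epor and Car2). They were taken as every probe set whose platform annotation gives 1 of these symbols and no other, which found 17 probe sets of 31042, with all 10 genes present. The arrays compared wild-type embryos with Pax6 mutant embryos homozygous for rSey2, both on a Sprague-Dawley background and collected at E11.5. Pax6 is a paired-box transcription factor of the dorsal telencephalon and the eye. Each genotype had 2 one-colour Affymetrix arrays of tissue pooled from several embryos, with 13 telencephalons named in the design text. The 2 arrays of a genotype are labelled as biological replicates, but no litters are named, so a p-value here measures only array-to-array spread, some of it possibly technical.

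At this stage of rat development, red cells are the primitive erythroid cells made in the yolk sac, which circulate while still nucleated and carry abundant messenger RNA. The transcription factor Gata1 and the Krüppel-like factor Klf1 switch on globin, haem-synthesis and membrane genes in these cells. The membrane is built on a spectrin skeleton, tied by ankyrin (Ank1) and protein 4.2 (Epb42) to the anion exchanger band 3 (Slc4a1), which swaps bicarbonate for chloride. Carbonic anhydrase 2 (Car2) makes that bicarbonate from carbon dioxide. The telencephalon itself makes no red cells. Car2 and Epor are also known from cells outside the blood.

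A value below is a GCRMA value on the log2 scale, as the authors deposited it, and a difference is mutant minus wild type on that scale, with n = 2 arrays per genotype. A probe set averaging below 3.21 across the 4 arrays, the 40th percentile, was treated as dim and not tested, which left 18625 tested probe sets. Among the members, 12 probe sets of 9 genes were tested and 5 were dim. The per-array median of tested probe sets ran from 8.22 to 8.35. Pax6 itself stood at 11.75 and 11.85 in wild type and at 11.78 and 11.63 in the mutant. Since the position of the rSey2 lesion relative to the Pax6 probe set is not given in the sources used here, this does not check the genotype labels. In bulk tissue, a difference in the number of red cells and a difference in RNA per red cell cannot be told apart.

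Most of the members had higher values in the mutant arrays, among them the anion exchanger Slc4a1 (1.91-fold), 1 of 2 Kel probe sets (1.84-fold) and the transcription factors Klf1 (1.73-fold) and Nfe2 (1.54-fold), while the tested probe sets of Epor and Ank1 differed by -0.13 and 0.03. Of the 12 tested probe sets, 11 had the higher mean in the mutant, where 49.1% of all tested probe sets did. In 7 of the 12, both mutant arrays lay above both wild-type arrays, where 11.4% of all tested probe sets did so, and in 0 of the 12 did both lie below, against 11.8%. By limma's moderated test 0 of the 12 passed an adjusted p of 0.05, as 0 of the 18625 did (0%); each of the 12 had an adjusted p of 1. Without adjustment, 4 of the 12 had a limma p under 0.05 and a higher mutant mean, where 1.74% of all tested probe sets did. That count dropped to 1 when wild-type array 1 was left out and to 2 when wild-type array 2 was left out. It was 3 and 5 when mutant arrays 1 and 2 were left out in turn. These counts include a Kel probe set (1398720_at) that passed the filter on dim values only through its mutant arrays and so had to differ; without it 10 of 11 had the higher mean in the mutant, 6 of 11 did not overlap and 3 of 11 had an unadjusted p under 0.05. With the dim probe sets included, 13 of the 17 were higher in the mutant (37.1% of all 31042 were), 2 were lower and 2 had the same value on every array. The arrays of 8 of these 17 did not overlap and were higher in the mutant, where 7.35% of all 31042 did so.

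**Figure D1:**
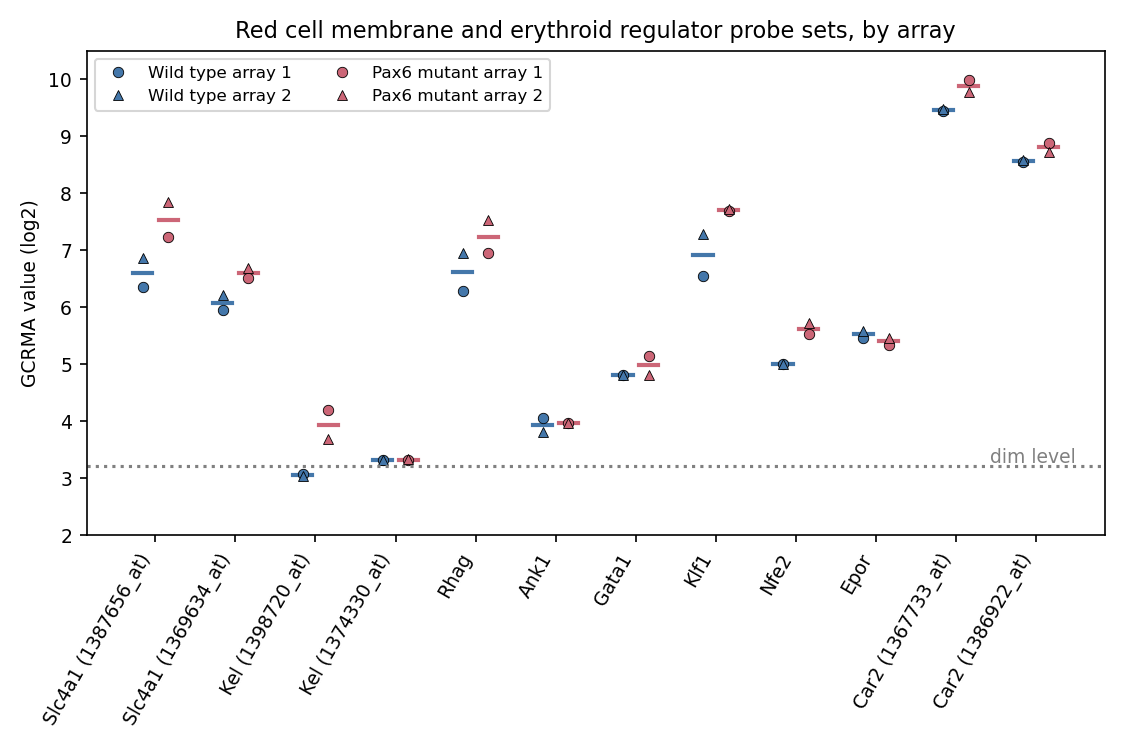
GCRMA values (log2, vertical axis) of the 12 tested probe sets in each array; blue marks wild type, red the Pax6 mutant, circles array 1, triangles array 2, and bars the mean of 2 arrays. The dotted line is the dim level of 3.21. Both red points lie above both blue points for Slc4a1 (both probe sets), Klf1, Nfe2, Car2 (both probe sets) and the upper of the Kel probe sets, while Rhag overlaps between genotypes and Epor lies slightly lower in the mutant.

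Slc4a1 had the largest difference of the members. Its brighter probe set (1387656_at) read 6.35 and 6.86 in wild type and 7.24 and 7.84 in the mutant. The genotypes did not overlap, but the 2 arrays of a genotype were 0.51 apart in wild type and 0.60 apart in the mutant. The difference was 0.94 (SE 0.32; 95% interval -0.03 to 1.90), or 1.91-fold, with an unadjusted limma p of 0.0535. Only 0.247% of tested probe sets had a larger positive difference. The other Slc4a1 probe set (1369634_at) read 5.96 and 6.21 in wild type against 6.52 and 6.70 in the mutant, again with no overlap. Its difference was smaller, 0.52 (SE 0.14; 95% interval 0.10 to 0.95), with an unadjusted limma p of 0.0279. Both probe sets of band 3 were thus higher in the mutant, by 1.91-fold and 1.44-fold.

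Rhag encodes the Rh-associated glycoprotein, an ammonia and gas channel that carries the Rh antigens to the cell surface. It read 6.29 and 6.96 in wild type and 6.95 and 7.53 in the mutant. Here the genotypes overlapped: wild-type array 2 lay 0.01 above mutant array 1. The difference was 0.61 (SE 0.35; 95% interval -0.46 to 1.68), within the spread between arrays (limma unadjusted p = 0.174). Array 2 read 0.67 above array 1 in wild type and 0.57 above it in the mutant. With the replicate number as a block, the limma unadjusted p was 0.00794 and the adjusted p 0.736. Leaving out wild-type array 1 gave 0.28, and leaving out wild-type array 2 gave 0.94.

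Kel encodes the Kell blood group glycoprotein, a membrane metallopeptidase. One probe set (1398720_at) read 3.08 and 3.04 in wild type and 4.20 and 3.69 in the mutant, so that both wild-type values were under the dim level. It passed the filter through its mutant arrays, and a probe set of that kind has to differ between the groups. Its difference was 0.88 (SE 0.21; limma unadjusted p = 0.0214), and 0.37 after adding a pseudocount of 16 on the linear scale. The second Kel probe set (1374330_at) held 3.32 in 3 arrays, identical to 4 decimals, and 3.33 in mutant array 2. With a difference of 0.01 (SE 0.07), the probe sets of Kel disagree.

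Ank1 and Epb42, which hold band 3 to the skeleton, gave little signal on these arrays. The tested Ank1 probe set (1395046_at) read 4.06 and 3.81 in wild type and 3.97 in both mutant arrays. The mutant values lay between the wild-type values, and the difference was 0.03 (SE 0.12; 95% interval -0.34 to 0.40). A dim Ank1 probe set (1389398_at) read 2.79 and 2.85 against 3.003 and 2.86, and the last one stood at 2.07, the lowest value of the table, on every array. Epb42 was dim as well, at 2.58 and 2.76 in wild type and 2.62 and 3.43 in the mutant. Its single high reading in mutant array 2 was not matched by mutant array 1, which lay below wild-type array 2.

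**Figure D2:**
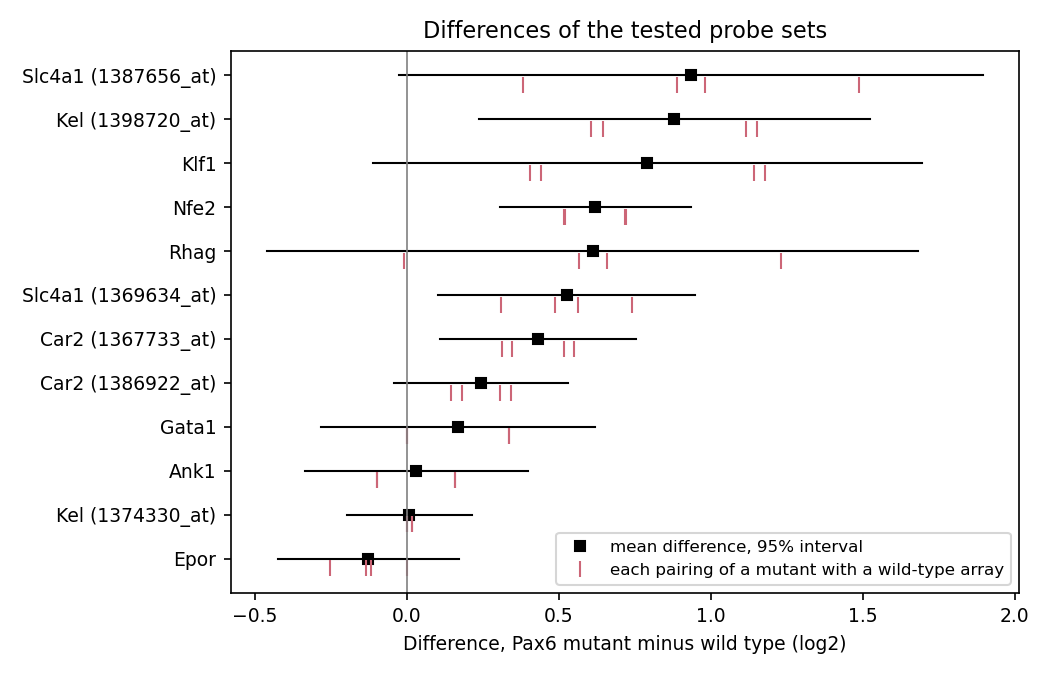
Differences between Pax6 mutant and wild type (log2, horizontal axis) of the 12 tested probe sets, with squares for the mean difference, lines for the 95% interval of limma's moderated test, and red ticks for each of the 4 mutant-to-wild-type array pairings. The interval of the brighter Slc4a1 probe set runs from -0.03 to 1.90, and that of Nfe2 from 0.30 to 0.93.

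Klf1, the Krüppel-like factor that binds CACCC elements of globin and membrane genes, had a mean above that of 36.7% of tested probe sets. It read 6.55 and 7.29 in wild type and 7.69 and 7.73 in the mutant. Both mutant arrays were above both wild-type arrays, and the wild-type arrays differed from each other by 0.74. The difference was 0.79 (SE 0.30; 95% interval -0.11 to 1.70), or 1.73-fold (limma unadjusted p = 0.0697). It was 0.42 with wild-type array 1 left out and 1.16 with array 2 left out.

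Nfe2 encodes the large subunit of the factor NF-E2, which binds globin control regions and is also needed in megakaryocytes. Its values were 5.006 and 5.003 in wild type and 5.52 and 5.72 in the mutant. This was the member with the smallest unadjusted limma p (0.00732), at rank 108 of the 18625 tested probe sets. The wild-type arrays were nearly equal and the mutant arrays lay at least 0.52 above them. Its difference was 0.62 (SE 0.10; 95% interval 0.30 to 0.93), or 1.54-fold, and 0.44 with the pseudocount of 16.

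Gata1 gave almost no measurable variation. The value was 4.81 in both wild-type arrays and in mutant array 2, identical to 4 decimals, and 5.15 in mutant array 1. Among the tested probe sets 3.56% shared 1 value on at least 3 arrays in this way. The difference of 0.17 (SE 0.15; 95% interval -0.28 to 0.62) rested on mutant array 1 and was 0.00 without it. No difference can be read among the 3 arrays that share the value.

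Epor, the receptor through which erythropoietin keeps erythroid precursors alive, was the 1 tested member with a lower mutant mean. It read 5.47 and 5.59 in wild type and 5.34 and 5.47 in the mutant. The higher mutant array and the lower wild-type array were equal at 2 decimals, and the difference of -0.13 (SE 0.10; 95% interval -0.42 to 0.17) lay within the spread between arrays (limma unadjusted p = 0.277). It was -0.06 with mutant array 1 left out. The contrast between Epor and the other members was not tested. Of its other probe sets, 1388090_a_at was dim at 3.08 and 2.96 in wild type and 3.05 and 2.88 in the mutant, and 1382766_at held the same value of 2.08 on all 4 arrays.

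Car2 had a strong signal, with a mean above that of 71.2% of tested probe sets. Its probe set 1367733_at read 9.44 and 9.47 in wild type and 9.99 and 9.78 in the mutant. Its probe set 1386922_at read 8.54 and 8.58 in wild type and 8.89 and 8.73 in the mutant. In both, the wild-type arrays were within 0.04 of each other and every mutant array was above them. The differences were 0.43 (SE 0.11; 95% interval 0.11 to 0.75; limma unadjusted p = 0.0227) and 0.24 (SE 0.09; 95% interval -0.04 to 0.53; limma unadjusted p = 0.0736). The second was 0.16 with mutant array 1 left out. In Car2 and in the brighter Kel probe set mutant array 1 was the higher mutant array, whereas in Slc4a1, Rhag and Nfe2 it was mutant array 2.

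Promoters of the members were searched for the letters that erythroid factors bind, since most members differed in the same direction. RefSeq promoter sequences (build GRCr8, 250 bases before to 50 after the annotated start) were matched for 6 of the 10 members: Epb42, Kel, Rhag, Gata1, Klf1 and Epor. Ank1 had no sequence here, nor had Slc4a1, Nfe2 and Car2, whose arrays did not overlap between genotypes. Among the 6, only Klf1 and 1 of 2 Kel probe sets had both mutant arrays above both wild-type arrays. The search therefore cannot bear on the shared direction. The GATA core GATAA, searched on both strands, stood in 3 of these 6 (Rhag, Klf1 and Epor), where 26.5% of 33469 promoters of the same length hold it. Other GATA forms, such as GATAG, were not searched, so the remaining promoters were not shown to lack a GATA site. The CACCC-type motif CCNCNCCC, also on both strands and with overlapping matches counted separately, stood in 2 of the 6 (Gata1 and Epor), where 46.3% of all promoters hold it. The 3 promoters below are shown because Rhag and Klf1, both with higher mutant means, carry the same GATA letters at nearly the same distance from the start, and Epor, with the lower mutant mean, carries one too, farther away. Capitals mark the matches to either motif.
Rhag, chr9:27594341-27594640, minus strand: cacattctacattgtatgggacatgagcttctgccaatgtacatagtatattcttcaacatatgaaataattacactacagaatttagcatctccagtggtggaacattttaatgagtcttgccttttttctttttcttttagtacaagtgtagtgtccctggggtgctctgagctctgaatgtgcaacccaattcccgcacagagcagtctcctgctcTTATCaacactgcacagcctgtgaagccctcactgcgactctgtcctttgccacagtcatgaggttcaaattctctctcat
Klf1, chr19:40158602-40158901, minus strand: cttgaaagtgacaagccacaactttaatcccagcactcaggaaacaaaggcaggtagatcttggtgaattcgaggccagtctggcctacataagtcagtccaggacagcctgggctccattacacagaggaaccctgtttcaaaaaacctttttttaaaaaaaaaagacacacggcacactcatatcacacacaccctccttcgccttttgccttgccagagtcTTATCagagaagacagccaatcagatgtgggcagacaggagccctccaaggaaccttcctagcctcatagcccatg
Epor, chr8:28770273-28770572, minus strand: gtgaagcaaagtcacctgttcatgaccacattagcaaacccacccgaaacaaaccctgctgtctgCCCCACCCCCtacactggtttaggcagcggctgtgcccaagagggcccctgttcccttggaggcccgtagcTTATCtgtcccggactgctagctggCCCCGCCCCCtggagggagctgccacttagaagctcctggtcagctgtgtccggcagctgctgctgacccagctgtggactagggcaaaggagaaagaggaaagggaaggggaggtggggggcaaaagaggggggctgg

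The GATA core lies on the reverse strand in all 3, read as TTATC, and begins 31 bases before the start in Rhag and 26 bases before it in Klf1. In Epor it begins 114 bases before the start, and 4 CACCC-type matches, overlapping in pairs, begin between 185 and 87 bases before it. Gata1, not shown, holds 3 CACCC-type matches. A match is a run of letters and was not tested for binding. Any part of these letters in the members' differences was not tested.

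The other genes of the red cell program were read from lists, with each gene represented by its brightest tested probe set. For the members in this form, 8 of 9 were higher and the median difference was 0.61. Kel enters both figures by probe set 1398720_at, which passed the filter only through its mutant arrays and so had to differ. Over all 9840 tested genes, 49.9% were higher and the median was 0.00. Among globins, haem synthesis and iron uptake genes, 21 of 23 tested were higher and 2 lower, with a median of 0.17. The largest differences there were those of Hemgn, an erythroid nuclear protein (0.83, SE 0.08), the globin Hbe2 (0.70, SE 0.45) and Alas2, the first haem-synthesis enzyme of red cells (0.67, SE 0.12). The arrays of Hbe2 overlapped between genotypes. The globins Hbe1, Hbg1, Hbz and Hbb differed by 0.22, 0.20, 0.18 and 0.05. Hemgn read 6.03 and 6.15 in wild type and 6.91 in both mutant arrays, with an adjusted limma p of 0.967. By limma's adjusted p, 0 genes passed in this or any of the other red cell lists, and 4 of the 23 had an unadjusted p under 0.05, all higher, where 1.78% of all tested genes were higher at that p.

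Among other red cell surface and skeleton proteins, 10 of 16 tested genes were higher and 6 lower, with a median of 0.04. That median was -0.04 with mutant array 2 left out, 0.11 with mutant array 1 left out, 0.08 with wild-type array 1 left out and 0.01 with wild-type array 2 left out. Dmtn, which bundles actin in the skeleton, differed by 0.67 (SE 0.29), the Rh antigen gene Rhd by 0.49 (SE 0.08) and the nucleoside transporter Slc29a1 by 0.44 (SE 0.29). Rhd, the partner of Rhag in the Rh complex, read 5.67 and 5.54 in wild type and 6.10 and 6.08 in the mutant (limma unadjusted p = 0.00775). Its genotypes did not overlap, in contrast to those of Rhag. Sptb, Add2, Tmod1, Aqp1 and Slc14a1 were dim. The list also holds widely expressed genes, so its median is not that of red cell proteins alone.

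Among the other haematopoietic and erythroid transcription factors, 12 of 17 tested genes were higher, with a median of 0.11 (0.03 with mutant array 2 left out). The repressor Bcl11a, which neural cells also express, differed by 0.85 (SE 0.23), Bach1 by -0.45 (SE 0.26) and Etv6 by 0.34 (SE 0.28). Tal1 and Lyl1, chosen after their values were seen because Tal1 binds DNA together with Gata1, differed by 0.33 (SE 0.25) and 0.25 (SE 0.09). Lmo2 and Ldb1 of the same list differed by only 0.12 (SE 0.22) and 0.02 (SE 0.17), both with overlap between genotypes. Tal1 read 7.29 and 7.61 in wild type and 7.52 and 8.04 in the mutant, with overlap. Gata2, Zfpm1 and Runx1 were dim, and Gfi1b stood at the lowest value of the table.

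The list for erythropoietin receptor signalling also holds Kit and Kitlg, of another receptor system, and the hormone Epo. In it, 10 of 12 tested genes had the higher mean in the mutant, at a median of 0.09. That median was 0.003 with wild-type array 1 left out, 0.13 with wild-type array 2 left out and 0.15 with mutant array 1 left out. Pim1, a kinase induced by cytokine receptors, differed by 0.94 (SE 0.10), from 4.40 and 4.53 in wild type to 5.34 and 5.47 in the mutant (limma unadjusted p = 0.00172; adjusted p = 1). Sh2b3, an adaptor that dampens the signal, differed by 0.39 (SE 0.18) and Stat5b by 0.37 (SE 0.38). Epo and Stat5a were dim, and Csf2rb stood at the lowest value of the table. Red cell enzymes and carbonic anhydrases other than Car2 had 7 of 13 tested genes higher and a median of 0.01 (-0.03 with wild-type array 1 and 0.06 with wild-type array 2 left out), with Pklr at 0.43 (SE 0.34), Fbxo7 at 0.35 (SE 0.22) and Car8 at -0.30 (SE 0.25). Car1, the other classical red cell carbonic anhydrase, stood at the lowest value of the table, as did Car4 and Car7.

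**Figure D3:**
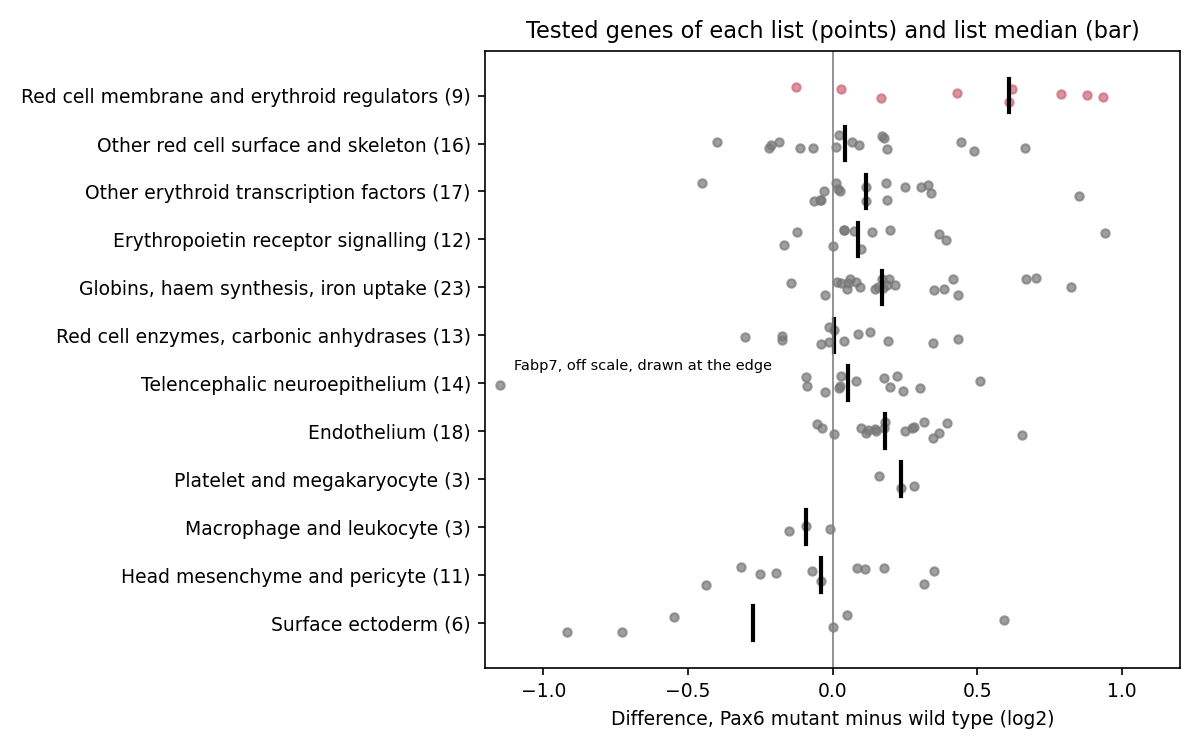
Differences between Pax6 mutant and wild type (log2, horizontal axis) of the tested genes of each list, 1 point per gene, with a black bar at the list median and the number of genes in brackets; vertical scatter within a list has no meaning. The members' median lies at 0.61, that of globins, haem synthesis and iron uptake genes at 0.17 and that of endothelial genes at 0.18. Kel is drawn by probe set 1398720_at, which passed the filter only through its mutant arrays.

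Markers of other cell types were read beside the members; limma called 0 of their tested genes after adjustment, and their part in the members' differences was not tested. Of 18 tested endothelial genes, 16 had the higher mean in the mutant, and their median difference was 0.18. It was 0.10 with mutant array 2 left out, 0.29 with mutant array 1 left out and 0.28 with wild-type array 2 left out. Their summed linear value (2 to the power of the GCRMA value) was 6156 to 6312 in wild type and 6973 to 7744 in the mutant. Plvap differed by 0.65 (SE 0.18), Sox18 by 0.39 (SE 0.11) and Flt1 by 0.37 (SE 0.30). The 3 tested platelet and megakaryocyte genes, Itgb3 (0.28), Itga2b (0.24) and Pf4 (0.16), summed to 658 to 682 in wild type and 669 to 889 in the mutant, with Gp9 at the lowest value. Macrophage and leukocyte genes were mostly dim (12 of 15), and the 3 tested ones, Coro1a, Cd68 and Fcer1g, were lower by 0.15 or less, with sums of 631 to 667 and 532 to 651.

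Of 11 tested head mesenchyme and pericyte genes, 5 were higher (median -0.04, and from -0.12 to 0.08 with 1 array left out), with Pdgfra at -0.44, Rgs5 at 0.35 and Foxc1 at -0.32, and sums of 8846 to 9018 in wild type against 7442 to 8627. Of 6 tested surface ectoderm genes 2 were higher and 3 lower, with Epcam at -0.92, Krt18 at -0.73 and Cdh1 at 0.59. They summed to 448 to 549 and 430 to 464, and Krt14 stood at the lowest value. Neuroepithelial genes were present in both genotypes, with 14 of 14 genes tested, a median of 0.05 (from -0.003 to 0.17 with 1 array left out) and sums of 55681 to 56175 against 56112 to 57880. Their largest differences were those of Fabp7 (-7.26), Dcx (0.51) and Lhx2 (0.30).

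The defining red cell markers hold no newly counted tested gene. Of them, 3 are members and the rest stand in the list of globins, haem synthesis and iron uptake. These markers were higher in 8 of 8 cases, where 49.9% of all tested genes were, so the count is no added support. The sum of the markers, most of which comes from globins, ran from 67338 to 68073 in wild type and from 77933 to 78226 in the mutant. Its mutant mean was 115% of the wild-type mean. For the tested members the sum ran from 1077 to 1238 and from 1654 to 1660, a mutant mean of 143%. Most of that sum was Car2: without it the sums were 384 and 527 in wild type and 638 and 779 in the mutant, or 156%. These sums depend on how each probe set converts RNA to signal, and a difference between 115% and 156% was not tested.

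**Figure D4:**
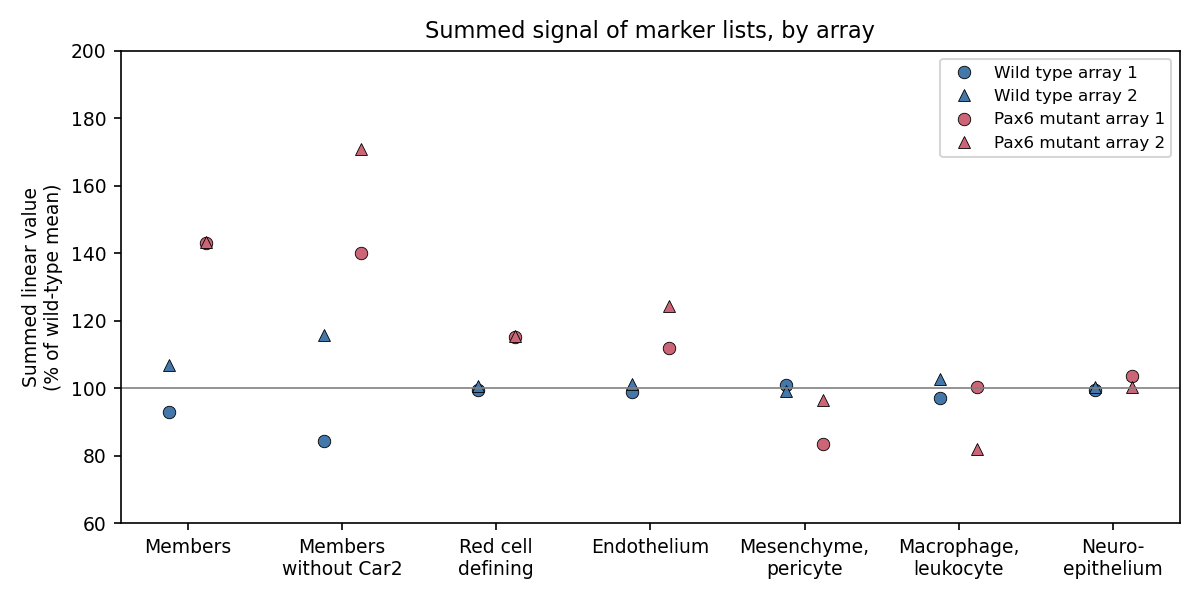
Summed linear value of the tested genes of each list in each array, as a percent of the wild-type mean (vertical axis, not starting at 0); circles mark array 1, triangles array 2, blue wild type and red the Pax6 mutant. The mutant mean is 143% for the members, 156% for the members without Car2, 115% for defining red cell genes and 118% for endothelial genes.

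Across the 4 arrays, the genes whose profile lay closest to that of the brighter Slc4a1 probe set were Unc79, Slc18a2, Plxnc1, Rprm and Rnf180. Closeness was the root mean square difference between deviations from each gene's own mean, and it ran from 0.08 for Unc79 to 0.14 for Rnf180. Unc79 read 3.47 and 4.17 in wild type and 4.45 and 5.17 in the mutant. Among the 5 there was no globin or haem-synthesis gene. With 9831 candidate genes and 4 arrays such matches are a description.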

How the data were processed

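RNA from telencephalon was extracted with TRIZOL and labelled from 10 µg of total RNA, per the labels' protocols. The authors deposited GCRMA values, per the submitters' processing notes, 1 for each probe set in each array, in log2 units as judged from their range; no software version is named. GCRMA models background from the probes' base composition, normalizes between arrays and combines the probes of a set, and here it left many weak probe sets at identical low values. Arrays have no read depth; their number limits the precision.

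After removal of 57 controls, 31042 probe sets remained, of which 20826 had 1 gene symbol, 436 several and 9780 none here. The symbols of all 17 member probe sets matched RefSeq by Entrez identifier. Nothing was normalized again. Probe sets with a mean under the 40th percentile were left out. limma 3.58.1 in R 4.3.3 (lmFit, eBayes) fitted genotype alone over 18625 probe sets, with Benjamini-Hochberg adjustment at 0.05 and 95% intervals. No permutation test was run, since with 2 arrays against 2 its smallest two-sided p is 0.333. The procedure was run on simulated data with independent errors, which does not show how it performs on these arrays. The genes named were all member probe sets, Pax6, up to 3 genes with the largest difference in each list, list genes at the lowest value and the 5 closest profiles to Slc4a1. Outside that rule, Tal1, Lyl1, Lmo2, Ldb1 and dim list genes are named, chosen after their values were seen. The globins Hbe1, Hbg1, Hbz and Hbb are also named outside it. The members and lists were chosen with earlier results of these data known. The 12 alternatives were no filter or a stricter one (60th percentile), a pseudocount of 16, quantile normalization, median centring, the replicate number as a block, each array left out, zero-variance probe sets left out and a trended prior variance.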

Additional observations from a re-analysis of the deposited data

How the results depend on the processing

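Under each of the 12 alternatives limma called 0 member probe sets after adjustment (with 1 to 6 at an unadjusted p under 0.05 and a higher mutant mean). Over all probe sets the count was 1 with the stricter filter and 2 each with quantile normalization, with median centring and without 249 zero-variance probe sets, against 0 otherwise. The cause was not tested. The number of member probe sets whose arrays did not overlap and were higher in the mutant was 7, as given above. With the stricter filter, which tests fewer probe sets, it was 4. Those were all the member probe sets then tested (1 of Slc4a1, Klf1 and both of Car2). It was 9 with quantile normalization, 8 with median centring and 8 to 9 when 1 array was left out. Leaving out an array can only remove overlap, in any probe set. The share over all probe sets is not given for these alternatives. In limma's fits with 1 array left out, the lone array of a genotype was assumed to vary like the others. With 1 array left out the tested Ank1 difference ran from -0.10 (without wild-type replicate 2) to 0.16. The Gata1 difference was 0.00 without mutant replicate 1, and that of the weaker Kel probe set 0.00 without mutant replicate 2. With the replicate number as a block, 0 probe sets were called and 1194 had an unadjusted p under 0.05, against 680 without it; 6 of the member probe sets did, against 4. Deviations of same-numbered arrays correlated at 0.43, but 2 pairs do not establish a pairing. The members' median of 0.61 was 0.42 with the pseudocount and 0.41 without wild-type replicate 1. With the stricter filter it was 0.79, but only Slc4a1, Klf1 and Car2 were then tested, so that value is the Klf1 difference. The value of 0.61 counts Kel by probe set 1398720_at, which passed the filter only through its mutant arrays.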
